A study of Saccharomyces cerevisiae with 36 samples.

Results

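RPS14A and RPS14B are the paired copies of the budding yeast gene for ribosomal protein S14 of the small ribosomal subunit, and each copy holds an intron. They were taken by gene symbol from the array annotation and are 2 of the 230 genes on the splicing array. Each gene has 3 neighbouring probes with 4 spots a probe, so that the pair makes up 6 of the 724 probes with a symbol and 24 of 2896 spots. The table of yeast genes used here (RefSeq) gives them the locus tags YCR031C, on chromosome III, and YJL191W, on chromosome X. Neither the files nor the labels name a genome build, so no coordinates are given.

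The study measured 18 mutants against wild type on 36 arrays with 2 colours, 2 arrays a mutant, with mutant and wild-type RNA exchanged between the channels. The 17 deletion strains were brr1, cus2, dbr1, ecm2, gcr3, hsp104, msl1, mud1, mud13, mud2, nam8, prp17, prp18, snu17, snu40, snu66 and upf3. They were grown at 26 °C and set against BY4741, except dbr1. That strain was set against a sample labelled only as wt, and both were pools of RNA from haploid and diploid cells, some growing and some sporulating. The other mutant, prp4-1a, carries a temperature-sensitive allele. It and its wild type SS330 were moved from 26 to 37 °C for 2 h, so heat is shared by both channels there and by no other mutant. Each mutant is 1 strain, and nothing used here says whether both arrays of a strain come from independent cultures. The p-values therefore cover variation from array to array, which may be purely technical.

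As background, most yeast ribosomal protein genes are kept as paired copies, and many of them hold introns. RPS14A supplies most of the S14 protein of the cell. RPS14B is a known case of feedback: S14 protein binds the RPS14B pre-mRNA and holds down its expression, so that the second copy is drawn on when the first falls short. The mutants lack factors of different steps: cap binding (gcr3 and mud13, the large and small subunit of the nuclear cap-binding complex), early recognition of the intron (mud2, the partner of the branch point binding protein, and mud1 and nam8 of the U1 snRNP), the U2 snRNP (msl1, cus2 and snu17), snRNP supply and the U4/U6/U5 particle (brr1, snu66, snu40 and prp4-1a), the assembled spliceosome (ecm2) and its second chemical step (prp17 and prp18), lariat debranching (dbr1) and nonsense-mediated decay (upf3). The protein missing in hsp104 is a chaperone.

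Levels are given as log2 of mutant over wild type, the unit of the deposited ratios. In order along the array, the probes of a gene are read as junction, intron and exon, roles that are inferred from the order and not stated in the files. The exon probe follows all RNA of a gene. Subtracting the exon probe of a gene from its intron probe gives the intron index, and from its junction probe the junction index, both on the log2 scale. A fit with limma over all features gave standard errors and p-values, adjusted by the Benjamini-Hochberg method within a mutant, and a change means an adjusted p under 0.05. Errors are standard errors with n = 2 arrays unless stated otherwise. One spread was shared by all arrays, and the arrays of prp4-1a and mud13 lay 2.89 and 2.81 times as far apart as the median mutant at exon probes, 3.72 and 1.99 times at intron indices and 4.52 and 2.45 times at junction indices. At intron indices the arrays of dbr1 lay 1.84 times as far apart. Errors and p-values of these mutants are therefore too small. Between 2127 and 2792 spots with a symbol were usable per array (median 2478), and the number of arrays limits the precision. The RPS14B intron probe gave no usable spot on either dbr1 array, and 1 usable spot on the first arrays of msl1 and snu17.

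The labels do not settle which channel is the numerator of the deposited ratio. Channel 2 over channel 1 is likely, since the exon probes of deleted genes were then low in their own strains: MUD1 averaged −2.56 ± 0.10 (SD, n = 2) in mud1, and STO1, the gene deleted in gcr3, averaged −5.59 ± 0.31 (SD, n = 2). Some arrays with the mutant in channel 2 correlated negatively over all probes, at −0.43 for prp4-1a with hsp104, −0.40 for prp4-1a with cus2, and −0.36 for prp4-1a with nam8 and for hsp104 with snu17. With the sign turned, each value below changes sign, each higher reads lower, and the order of the mutants reverses.

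At the exon probe, RPS14B fell in 7 of the 18 mutants and rose in 1, while RPS14A fell in 3 and rose in none. Over all exon probes and mutants, 24% of values were called lower and 4.7% higher. The drops of RPS14B were largest in prp18, prp17 and gcr3, and its 1 rise was in mud13. RPS14A fell most in prp4-1a, where RPS14B did not pass the test.

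The RPS14B exon probe read −1.73 and −1.63 on the prp18 arrays, and −1.65 and −1.47 on those of prp17. All 4 arrays lay well below wild type, at a 3.20-fold and a 2.95-fold lower level. The fitted change was −1.68 ± 0.13 in prp18 (adjusted p = 1.56e-10) and −1.56 ± 0.13 in prp17 (adjusted p = 1.64e-09). In both strains it was the lowest exon probe, of 223 and 225 measured. In gcr3 the arrays read −1.79 and −1.27, a 2.89-fold lower level (−1.53 ± 0.13, adjusted p = 4.2e-10), which placed RPS14B 222nd of 226 exon probes from the top.

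A middle group followed. In msl1, which lacks a protein of the U2 snRNP, RPS14B read −1.16 and −0.90, again with both arrays far below 0 (−1.03 ± 0.13, adjusted p = 1.62e-06, 220th of 222). The arrays of brr1 read −0.65 and −0.74 (−0.70 ± 0.13, adjusted p = 0.000122), and those of snu17 −0.71 and −0.59 (−0.65 ± 0.13, adjusted p = 0.000542). The drop in mud2 was small, at −0.53 and −0.25 (−0.39 ± 0.13, adjusted p = 0.0485), and was not called once either array was left out. In brr1 the call was lost without its second array (−0.53).

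In mud13 the RPS14B exon probe was higher on both arrays, at 0.17 and 0.92. It stood 3rd of 225 exon probes (0.55 ± 0.13, adjusted p = 0.00181), and without the second array the value was 0.27 and no longer called. The median exon probe in mud13 was −0.28. Among 40 other genes of small subunit proteins, 28 fell in mud13 and none rose, and the highest of them read −0.09. Over all exon probes of mud13, 44.4% were called lower and 3.56% higher.

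The RPS14A exon probe read −2.33 and −2.63 in prp4-1a, 5.59-fold below the wild type at the same temperature (−2.48 ± 0.14, adjusted p = 2.64e-15). Both arrays lay below the median exon probe of that mutant, −1.24. The other drops were in mud13, with −0.94 and −0.41 (−0.68 ± 0.14, adjusted p = 0.00046), and prp18, with −0.63 and −0.42 (−0.52 ± 0.14, adjusted p = 0.00292). Each of these lost its call without the first array (−0.47 and −0.49). Of the 4 mutants where RPS14B was lowest, RPS14A thus fell in prp18 too. In prp17 it read −0.55 and 0.12, in gcr3 −0.05 and 0.04, and in msl1 −0.23 and 0.28, with arrays on either side of 0.

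RPS14B in prp4-1a read −0.03 and −0.30 (−0.17 ± 0.13, adjusted p = 0.251), close to wild type while most exon probes fell. Centring each array on exon probes and on genes without introns moves all values of prp4-1a up by 1.07. RPS14B then read 0.90 and was called higher, RPS14A read −1.42 and stayed lower, and the drop of RPS14A in prp18 was no longer called (−0.32). The same centring moves gcr3 up by 0.31 and mud13 by 0.27.

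**Figure D1:**
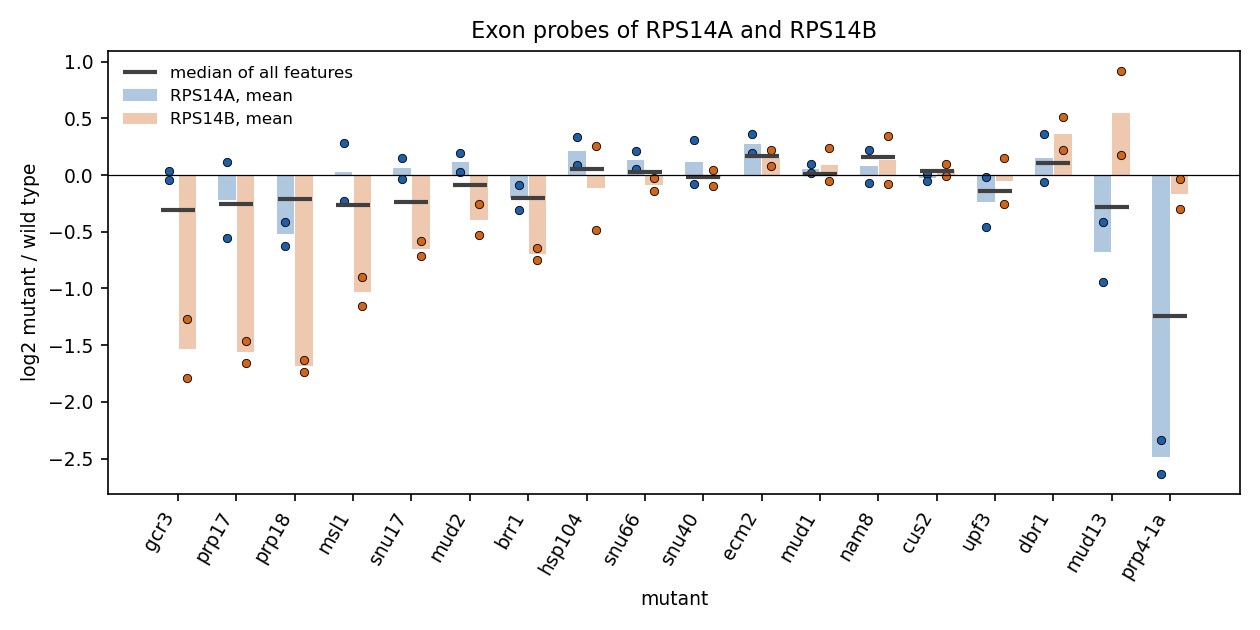
Exon probes of RPS14A (blue) and RPS14B (orange) in the 18 mutants, as log2 of mutant over wild type. Bars are means, points are the 2 arrays and dark ticks the median over all exon probes, and mutants are ordered from left to right by RPS14B minus RPS14A. RPS14B is lowest in gcr3, prp17 and prp18 and highest in mud13, and RPS14A is lowest in prp4-1a.

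The intron index of RPS14A was higher in 8 mutants and lower in 1 of 18. That of RPS14B was higher in 7 and lower in none of 17. Over all introns and mutants, 49.6% of values were called higher and 0.784% lower, so a rise in about that share of mutants is close to the background. Of the mutants where both were measured, prp18 and upf3 raised the index of RPS14A alone by this test, and gcr3 that of RPS14B alone. In mud2 the indices of the copies moved in opposite directions. Both indices rose in prp4-1a, brr1, msl1, snu17 and snu66.

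RPS14A in prp4-1a read 3.90 and 3.75, the highest index of the pair in any mutant (3.82 ± 0.15, adjusted p = 2.21e-18), near the median intron at 3.38. RPS14B there read 1.63 and 1.77 (1.70 ± 0.14, adjusted p = 1.17e-11), 189th of 214 introns. No array of one copy overlapped an array of the other. In dbr1, which does not open lariats, RPS14A read 2.02 and 2.34 (2.18 ± 0.15, adjusted p = 1.78e-13), with a median of 1.68 over introns.

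In prp18 the RPS14A index was 1.74 and 1.51 (1.62 ± 0.15, adjusted p = 8.74e-10, 15th of 207 introns), whereas RPS14B read 0.13 and 0.15 (0.14 ± 0.14, adjusted p = 0.373). In upf3, which lacks a nonsense-mediated decay factor, RPS14A read 1.29 and 1.04 (1.17 ± 0.15, adjusted p = 4.78e-06) and stood 3rd of 207 introns, with a median of 0.35. RPS14B there read 0.07 and 0.09 (adjusted p = 0.679). The other 40 measured small subunit genes reached at most 1.13 in upf3, and 24 of them rose, against 36.7% of all introns there.

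The order was the reverse in gcr3. RPS14B read 1.96 and 1.42 (1.69 ± 0.14, adjusted p = 1.64e-10), 29th of 214 introns, and RPS14A read 0.18 and −0.02 (adjusted p = 0.637), below the median of 0.75. In mud2 both changes were small, at 0.54 and 0.31 for RPS14B (0.42 ± 0.14, adjusted p = 0.0187) and −0.34 and −0.55 for RPS14A (−0.44 ± 0.15, adjusted p = 0.0172, 211th of 215). Neither mud2 call held with either array left out.

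The remaining rises were 1.26 for RPS14A and 0.32 for RPS14B in snu17, 1.05 and 0.53 in brr1, 0.64 and 0.66 in msl1, and 0.49 and 0.54 in snu66. In each of these mutants most introns rose, with medians of 1.21 to 1.35, and all but RPS14A in snu17 and brr1 lay far below that median. The RPS14B calls in snu17 (without either array) and brr1 (0.39 without the second array), and the RPS14A call in snu66 (0.38 without the second array), were lost when an array was left out. Set against hsp104, a strain without a chaperone, in place of wild type, the RPS14B index passed in 3 mutants, higher in prp4-1a and gcr3 and lower in mud13. In hsp104 itself the RPS14B index read 0.47 and 0.08 and was not called.

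**Figure D2:**
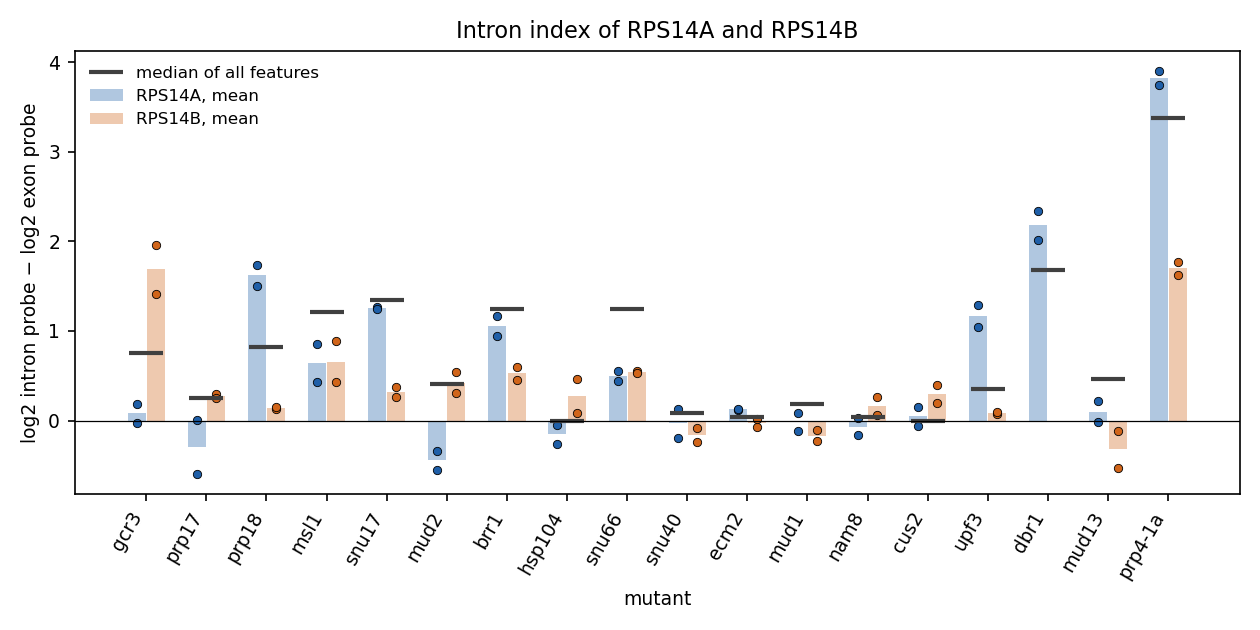
Intron index (log2 intron probe minus log2 exon probe, mutant over wild type) of RPS14A in blue and RPS14B in orange, with mutants in the order of the plot of exon probes. Bars are means, points the 2 arrays and dark ticks the median of all introns. RPS14A exceeds RPS14B most in prp4-1a, prp18, upf3 and snu17, and RPS14B exceeds RPS14A most in gcr3 and mud2. Smaller called differences are in brr1 and mud13 (RPS14A higher) and in prp17 (RPS14B higher). RPS14B was not measured in dbr1.

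The junction index, which sets spliced RNA against all RNA of the gene, separated the copies less than the intron index. It stays near 0 where the junction and exon probes fall together, as for RPS14B in prp18 (0.08, with a junction probe of −1.60). At this index RPS14B was lower in 4 of 18 mutants and higher in none, and RPS14A was higher in 1 and lower in none. The shares over all junctions and mutants were 8.35% lower and 1.42% higher. RPS14B fell in prp4-1a, gcr3, brr1 and prp17. In prp4-1a its arrays read −0.42 and −1.63, far apart (−1.03 ± 0.14, adjusted p = 1.16e-06), while RPS14A read 0.54 and 0.81 (0.68 ± 0.11, adjusted p = 7.51e-06). When arrays of more variable mutants were given less weight, the RPS14A value in prp4-1a was no longer called (adjusted p = 0.184). In gcr3 RPS14B read −0.54 and −1.07 (−0.80 ± 0.14, adjusted p = 0.000269), in brr1 −0.71 and −0.60 (−0.66 ± 0.14, adjusted p = 0.00321), and in prp17 −0.52 and −0.46 (−0.49 ± 0.14, adjusted p = 0.0158). The calls in gcr3 (−0.61 without the second array), brr1 (−0.51 without the first) and prp17 (without either) did not hold with 1 array.

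The single probes show how each index came about, since an index also rises when the exon probe falls further than the intron probe. The RPS14A intron probe was higher in 8 mutants and lower in 2 of 18, and the RPS14B intron probe higher in 2 and lower in 4 of 17. Over all intron probes and mutants, 46% were called higher and 2.52% lower, so the rises of RPS14A are close to that share and those of RPS14B below it. The RPS14A junction probe was lower in 4 mutants and higher in none, and the RPS14B junction probe lower in 9 and higher in 1, against 27.6% lower and 2.31% higher over all junction probes.

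In prp18 all 3 RPS14B probes fell together: the junction probe read −1.58 and −1.61, the intron probe −1.60 and −1.48, and the exon probe the values above. The flat intron index of RPS14B in this strain therefore covers an intron probe that was the lowest of 208 (−1.54 ± 0.11, adjusted p = 2.06e-11). The RPS14A intron probe rose on the same arrays, at 1.11 and 1.09 (1.10 ± 0.14, adjusted p = 2.27e-07). The copies thus lay apart at the intron probe by 2.64 on the log2 scale, with no overlap of arrays.

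RPS14B had the same 3-probe drop in prp17, with −2.17 and −1.93 at the junction and −1.35 and −1.21 at the intron, the lowest intron probe of 209 (−1.28 ± 0.11, adjusted p = 1.13e-09). Here RPS14A also fell at the intron probe, by less, at −0.55 and −0.47 (−0.51 ± 0.14, adjusted p = 0.0035), but centred on exon probes and genes without introns this was −0.26 and not called. In gcr3 the RPS14B junction probe read −2.33 and −2.34 (−2.34 ± 0.19, adjusted p = 2.87e-10), 5.05-fold below wild type, while its intron probe stayed at 0.17 and 0.15 (adjusted p = 0.198). With that centring the intron probe of RPS14B was 0.47 in gcr3 and called higher. Without it, the raised index in gcr3 is a low exon probe beside an intron probe near 0. The raised RPS14B indices in msl1, snu17, brr1 and mud2 also came with exon probes called lower. The RPS14B intron probes there were not called higher (−0.37, −0.33, −0.17 and 0.03). In snu66 the RPS14B intron probe was called higher (0.46).

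In mud13 the junction probe of RPS14B read 0.46 and 1.03 and was the highest of 217 junction probes (0.74 ± 0.19, adjusted p = 0.00374), and its intron probe read 0.05 and 0.39 (adjusted p = 0.0908; 0.49 and called higher when centred as above). All 3 RPS14A probes fell in this strain, the junction probe to −0.79 and −0.76 (−0.77 ± 0.12, adjusted p = 1.91e-05) and the intron probe to −0.73 and −0.43 (−0.58 ± 0.14, adjusted p = 0.00146, 214th of 217), the latter −0.31 and not called after centring. The arrays of the copies did not overlap at any of the 3 probes.

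The U2 mutants msl1 and snu17 shared a pattern that was not particular to mutants of the U2 snRNP. The RPS14A intron probe rose, to 0.63 and 0.71 in msl1 and 1.23 and 1.40 in snu17, and the RPS14B intron probe fell slightly, to −0.27 and −0.47 in msl1 (−0.37 ± 0.11, adjusted p = 0.00458, 194th of 195) and −0.33 and −0.32 in snu17 (−0.33 ± 0.11, adjusted p = 0.0117, 208th of 210). On the first array of either strain this RPS14B value rested on 1 usable spot. These RPS14B drops also turned on the scaling: centred on exon probes and genes without introns they were −0.11 and −0.07 and not called. The same directions, further apart, were seen in prp18 (1.10 for RPS14A and −1.54 for RPS14B). In brr1 the RPS14A intron probe rose (0.86) and that of RPS14B was not called (−0.17). In cus2, also of the U2 snRNP, neither was called (0.02 and 0.34). In upf3 the RPS14A intron probe read 0.83 and 1.03 (0.93 ± 0.14, adjusted p = 1.17e-05, 12th of 208), with the exon probe at −0.46 and −0.02. RPS14B lay on both sides of 0 at the intron and exon probes of upf3.

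In prp4-1a the intron probes of the copies were alike, at 1.57 and 1.11 for RPS14A and 1.60 and 1.47 for RPS14B, with arrays that overlapped. The wide gap between their indices lay in the exon probes. Both junction probes fell, to −1.79 and −1.82 for RPS14A and −0.46 and −1.92 for RPS14B, whose drop was −0.12 and not called after centring on exon probes and genes without introns. On the first array each RPS14A probe rested on 2 usable spots.

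**Figure D3:**
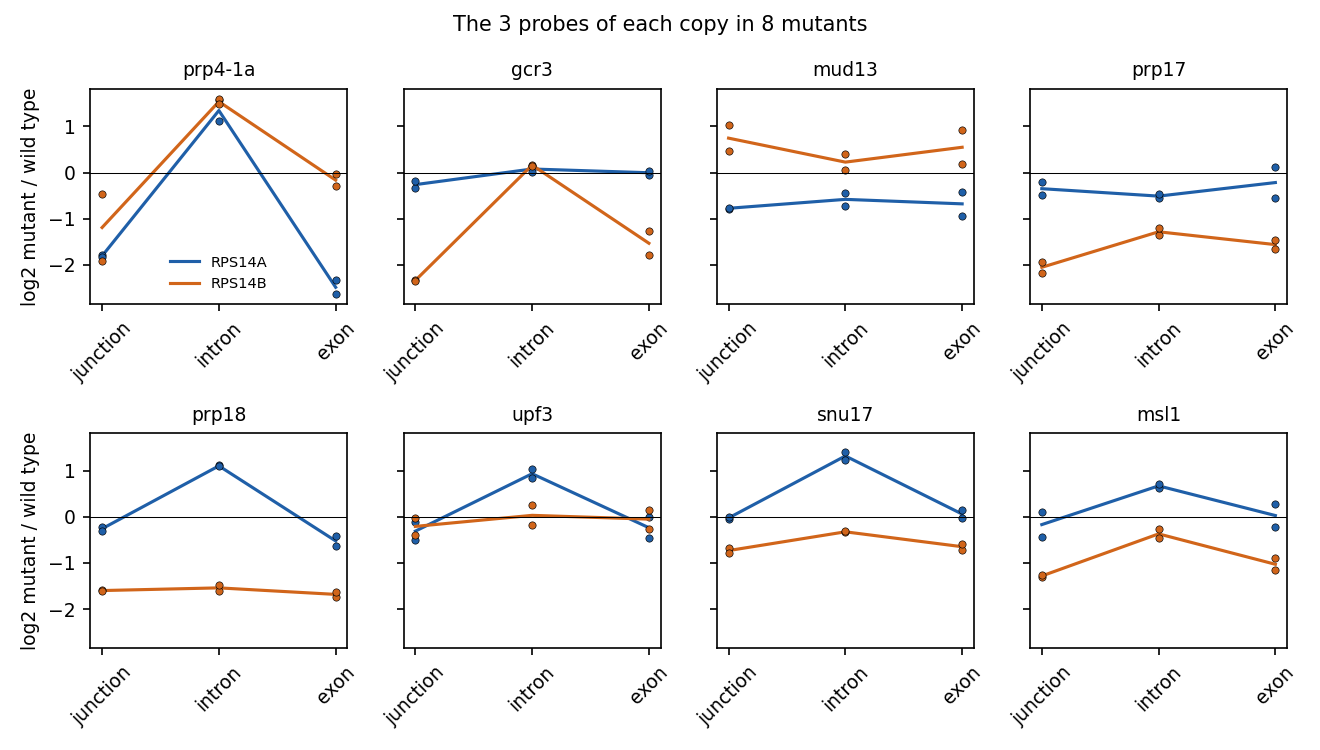
Junction, intron and exon probes of RPS14A (blue) and RPS14B (orange) in 8 mutants, as log2 of mutant over wild type, with a line through the means and a point per array. In prp18 and prp17 the 3 RPS14B probes lie below 0 together, in gcr3 the RPS14B junction and exon probes are low and the intron probe is near 0, and in mud13 RPS14B lies above and RPS14A below 0.

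None of the 10 values was called for the pair in 6 mutants, cus2, ecm2, hsp104, mud1, nam8 and snu40, where they ran from −0.30 to 0.40. In dbr1 the RPS14A intron probe read 1.96 and 2.71 (2.33 ± 0.14, adjusted p = 2.48e-14), and its intron index was the other called value there, and in snu66 the called values lay between −0.49 and 0.63. A missed threshold does not show that the copies did not change.

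The difference RPS14B minus RPS14A was taken per array and fitted beside the other copy pairs of ribosomal protein genes, which removes any scaling of the whole array. At the exon probe RPS14B was higher than RPS14A in 2 mutants and lower in 7, against 7.64% of pair values higher and 11.5% lower. At the intron index it was higher in 3 and lower in 6 of 17 mutants, against 16.2% and 16.6%. At the intron probe it was higher in 2 and lower in 6, against 17.6% and 19.8%, and at the junction probe higher in 2 and lower in 7, against 8.45% and 12.3%. At the junction index it was higher in none and lower in 3, against 4.97% and 5.65%.

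At the exon probe the arrays of prp4-1a put RPS14B above RPS14A by 2.30 and 2.34 (2.32 ± 0.14, adjusted p = 4.8e-12), the second largest difference of 43 pairs there. Those of mud13 did so by 1.12 and 1.33 (1.22 ± 0.14, adjusted p = 4.44e-07), the largest of 43, and this call held with either array left out. RPS14B lay below RPS14A by −1.75 and −1.31 in gcr3 (−1.53 ± 0.14, adjusted p = 7.06e-09), by −1.10 and −1.59 in prp17 (−1.34 ± 0.14, adjusted p = 1.91e-07) and by −1.10 and −1.21 in prp18 (−1.16 ± 0.14, adjusted p = 1.09e-06). In msl1 the difference was −1.05 (adjusted p = 4.72e-06), in snu17 −0.71 (adjusted p = 0.000444), in mud2 −0.51 (adjusted p = 0.0224) and in brr1 −0.50 (adjusted p = 0.00862). It was the largest of all pairs in gcr3, prp17, prp18, msl1 and mud2. The same rank was reached in hsp104, where the difference was not called (−0.33, adjusted p = 0.982). The mud2 and brr1 calls were lost when either array was left out, and those of mud2 (−0.18), brr1 (−0.17) and snu17 (−0.38) when hsp104 stood in place of wild type.

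At the intron index RPS14B lay above RPS14A in gcr3 (1.61 ± 0.14, adjusted p = 2.53e-10), mud2 (0.87 ± 0.14, adjusted p = 3.27e-05) and prp17 (0.57 ± 0.14, adjusted p = 0.00148). It lay below in prp4-1a in each array, with −2.27 and −1.98, as in prp18, with −1.61 and −1.36, and in upf3, with −1.22 and −0.95. The fitted differences were −2.13, −1.48 and −1.09, with a standard error of 0.14 each and adjusted p of 5.57e-12, 8.76e-09 and 2.7e-06, and those of prp18 and upf3 were the largest of 42 pairs. Smaller differences followed in snu17 (−0.93), brr1 (−0.53) and mud13 (−0.42). The calls in prp17, brr1 and mud13 did not hold with 1 array left out (0.29, −0.35 and −0.32). Against hsp104 the differences in mud2 (0.44) and prp17 (0.14) were not called. In hsp104 itself the difference from wild type was not called (0.43, adjusted p = 0.224), yet it was also the largest of 42 pairs. At the junction index only prp4-1a (−1.70, adjusted p = 7.51e-08) held when any array was left out, at −2.44 without the first and −0.97 without the second of its own arrays, while brr1 (−0.65, adjusted p = 0.0483) and gcr3 (−0.55, adjusted p = 0.0463) did not.

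As a measure of how far a pair came apart over the mutants, the root mean square of B minus A was taken. For the exon probe it was 0.90 for RPS14, the highest of 43 pairs, followed by RPS9 with 0.82, RPL22 with 0.55 and RPL16 with 0.44. For the intron index RPS14 stood sixth of 43 with 0.88. The highest were RPS9 with 1.09, RPS30 with 1.05 and RPS25 with 0.99, and the lowest RPS10 with 0.20, RPL21 with 0.28 and RPS23 with 0.30. RPS14 was known to diverge in these data when it was chosen, so its rank is given as a description.

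**Figure D4:**
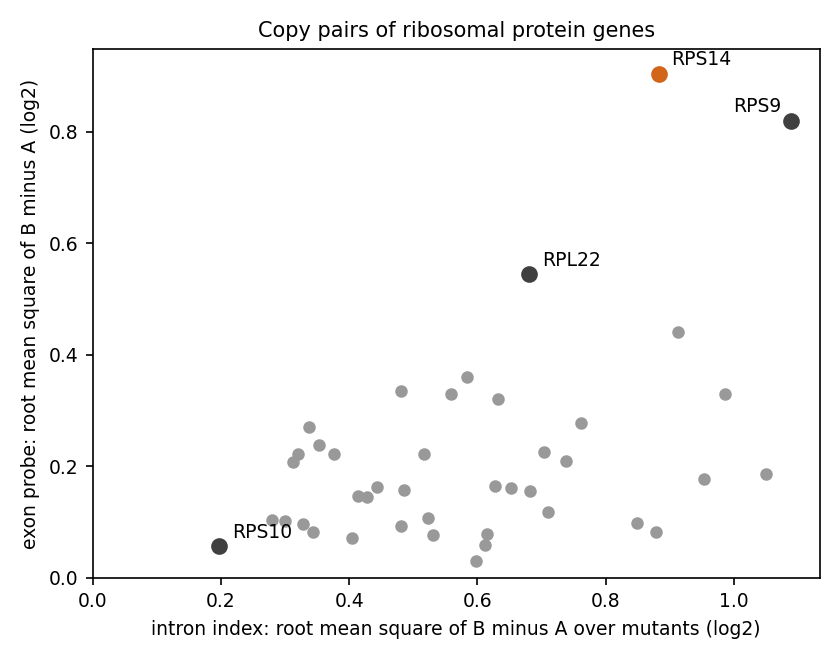
Copy pairs of ribosomal protein genes measured for both quantities (42 points), with the root mean square over mutants of copy B minus copy A for the intron index on the horizontal axis and for the exon probe on the vertical axis, both log2. RPS14 (orange) is highest on the vertical axis, near RPS9, and RPS10 is near the origin.

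Strains that lack partners of 1 complex or step were compared directly. The subunits of the cap-binding complex differed at RPS14B: gcr3 minus mud13 was −2.08 ± 0.19 at the exon probe (adjusted p = 3.1e-09) and 2.01 ± 0.20 at the intron index (adjusted p = 3.84e-08). Their junction indices of −0.80 and 0.20 differed too (adjusted p = 0.00601). At the RPS14A exon probe it was 0.67 ± 0.20 (adjusted p = 0.0428), and at the RPS14A intron index −0.02 ± 0.21 (adjusted p = 0.961). The copy difference itself differed between these strains by −2.75 ± 0.20 at the exon probe (adjusted p = 2.62e-10).

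The second-step factors prp17 and prp18 differed at RPS14A: prp17 minus prp18 was −1.92 ± 0.21 at its intron index (adjusted p = 2.54e-07). For RPS14B the same contrast was 0.14 ± 0.20 at the intron index (adjusted p = 0.613) and 0.12 ± 0.19 at the exon probe (adjusted p = 0.69). The copy difference of the intron index differed between these strains by 2.05 ± 0.20 (adjusted p = 1.31e-08).

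Of the U2 proteins, msl1 minus cus2 was −1.07 ± 0.19 at the RPS14B exon probe (adjusted p = 0.000181) and 0.60 ± 0.21 at the RPS14A intron index (adjusted p = 0.0106). For the U1 proteins, mud1 minus nam8 passed for neither copy at any of the 3 measures. The contrast of snu66 with prp4-1a, strains that also differ in temperature and wild type, was −3.33 ± 0.21 at the RPS14A intron index and −1.16 ± 0.20 at that of RPS14B. In the exon probe it was 2.62 ± 0.20 for RPS14A and 0.08 ± 0.19 for RPS14B.

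When the mutants were put in order of their values, few neighbours could be told apart: 5 of 101 neighbouring contrasts over the 6 measures passed. For the RPS14A intron index, prp4-1a stood above dbr1 (adjusted p = 7.83e-08) and dbr1 above prp18 (adjusted p = 0.0225). For the RPS14B intron index, prp4-1a and gcr3 did not differ beyond their spread, and gcr3 stood above msl1 (adjusted p = 0.000281). The RPS14A junction index of prp4-1a stood above that of prp18 (adjusted p = 0.0266), and the RPS14A exon probe of prp4-1a below that of mud13 (adjusted p = 5.62e-09). No neighbours passed for the RPS14B exon probe, from prp18 at the bottom to mud13 at the top.

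The genes whose values ran most like those of each copy over the mutants were different. The points share wild-type RNA and the scaling of each array, and the largest values come from prp4-1a, so the correlations are a description. For the RPS14A intron index they were RPS17A (r = 0.955), RPS24B (r = 0.942) and RPL23B (r = 0.939), all genes of ribosomal proteins, over 18 mutants. For that of RPS14B they were HNT2 (r = 0.848, 17 mutants), CNB1, the regulatory subunit of calcineurin (r = 0.795, 17 mutants), and PFY1, profilin (r = 0.788, 15 mutants). The copies correlated with each other at 0.507 over 17 mutants, and at 0.030 without prp4-1a. Without prp4-1a the genes named stood, in the same order, at 0.898, 0.882 and 0.862 for RPS14A. For RPS14B they stood at 0.769, 0.663 and 0.664.

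At the exon probe RPS14A ran most like RPL2B (r = 0.972), RPS0A (r = 0.970) and RPL24B (r = 0.963) over 18 mutants. RPS14B ran most like SEC14, a phosphatidylinositol transfer protein (r = 0.743), and RPL22B (r = 0.686), both over 18 mutants, and VPS75, a histone chaperone (r = 0.650, 17 mutants). The copies correlated with each other at 0.030 over 18 mutants, and at 0.251 without prp4-1a. Without prp4-1a the genes named stood, in the same order, at 0.808, 0.835 and 0.769 for RPS14A. For RPS14B they stood at 0.791, 0.742 and 0.651.

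Other ribosomal protein genes with known regulation of their own splicing or copy use give a frame for these values. RPL22B fell at the exon probe in gcr3 (−1.12), prp17 (−1.13), prp18 (−0.89), snu17 (−0.94) and msl1 (−0.67), as RPS14B did. It was not called in brr1 (−0.09) or mud2 (0.04), where RPS14B fell. It also fell in mud13 (−0.50) and prp4-1a (−0.93), where RPS14B did not, and rose in upf3 (0.98). RPS9A fell at the exon probe in gcr3 (−1.04), mud13 (−1.07), prp17 (−0.67) and prp18 (−0.67), and rose in prp4-1a (0.69), snu17 (0.44), brr1 (0.38) and msl1 (0.36), the last 3 being mutants where RPS14B fell. RPL30, whose protein binds its own transcript, fell in 6 of 18 mutants and rose in none at the exon probe. RPL22A fell in 3 and rose in 1, and RPS9B fell in 9 and rose in none. The shares over all exon probes and mutants were 24% lower and 4.7% higher, so the counts of RPL30 and RPL22A are not far from the background.

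Among the other small subunit genes, the RPS14B exon values lay outside the whole range in prp17, where the lowest of 40 was −0.67 and 23 fell, and in prp18, where the lowest of 38 was −0.94 and 31 fell. In gcr3 the lowest of 40 was −1.70 and 30 fell, so RPS14B at −1.53 lay within the range. RPS14A at −2.48 in prp4-1a lay near the median of these genes (−2.29), of which 39 of 40 fell, while RPS14B at −0.17 did not pass. Over all exon probes, 41.3% were called lower in prp17, 44.8% in prp18, 50% in gcr3 and 76.2% in prp4-1a. The probe sequences were not used here, and since the coding parts of the copies are alike, how far each exon probe also reads the other copy was not tested.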

How the data were processed

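The authors deposited 1 log2 ratio per spot and array, channel 2 over channel 1 in the likely direction; what was done between scanning and ratio is not stated. Whether the base is 2 was checked on differences of values within arrays, of which 44 of 148 matched a ratio of whole numbers up to 400 within 3e-08, against 14 at base 4, 3 at base 3, 2 at base 10 and 0 at base e. No scaling was added, and the median log2 ratio per array ran from −0.29 to 0.54. Exact zeros (7 to 567 spots per array) and blanks (0 to 689) were treated as missing, and each probe took the mean of its usable spots. The SD over these spots had medians of 0.09 to 0.22.

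The labelled channels set the sign of each ratio so that mutant stands over wild type. All 36 arrays entered 1 limma fit per measure (lmFit and eBayes, limma 3.58.1, R 4.3.3) with 1 term for each mutant and 1 for the dyes. A value was read where both arrays of the mutant measured it. P-values were adjusted within mutant and measure over all features, for single probes over all probes, and for copy differences over the copy pairs measured. The fit was tested before use on simulated data with the same spread on all arrays for a feature. That test does not cover the wider spread of prp4-1a, mud13 and dbr1.

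Genes named are the members, the 3 genes most correlated with each member (at least 14 mutants in common), RPL30, RPS9A, RPS9B, RPL22A and RPL22B, the 3 pairs furthest apart and the 3 closest, and MUD1 and STO1. RPL16 and the exon ranking of pairs were added after their values were seen. The members and lists were chosen with earlier results of these data known. Each slide held 1 array, so slide and array cannot be told apart. Alternatives were no dye term, both centrings, spot medians, a trend and robust spread, prp4-1a, dbr1, or prp4-1a and mud13 left out, zeros kept, at least 2 usable spots, weights by mutant, hsp104 as reference, a threshold of 0.01 and each array left out.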

Additional observations from a re-analysis of the deposited data

Results flagged for a closer look

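Differences between mutants were taken up here where the contrast passed and the effects of both mutants were called in opposite directions. No group had enough arrays for a check of single arrays.

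The RPS14B exon probe, lower in gcr3 and higher in mud13, differed between these strains by −2.08 on the log2 scale (limma, adjusted p = 3.1e-09). The difference RPS14B minus RPS14A at the exon probe, also of opposite sign in these strains, differed by −2.75 (adjusted p = 2.62e-10). At the intron index the copy difference was 2.03 higher in gcr3 than in mud13 (adjusted p = 1.71e-08) and 2.05 higher in prp17 than in prp18 (adjusted p = 1.31e-08). The arrays of mud13 lay further apart than those of most mutants.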

How the results depend on the processing

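No called value changed sign under any alternative, and of the 53 called values of single mutants 33 kept their call with either of their arrays left out and 20 lost it. Against hsp104, 16 of the 53 were not called. Standard errors are larger against hsp104 than against wild type, at 0.20 and 0.14 for the RPS14B intron index in prp4-1a. Of the contrasts between mutants 5 were run under alternatives, and these passed each time: gcr3 minus mud13 at the RPS14B exon probe (−2.35 to −1.80) and for the copy difference at the exon probe (−2.94 to −2.56) and intron index (1.84 to 2.22), and prp17 minus prp18 at the RPS14A intron index (−2.17 to −1.66) and for its copy difference (1.77 to 2.34).

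Counts of mutants called for the intron index and the exon probe of either copy and of their difference stayed within 1.5 times the reported one under all alternatives, except that the RPS14B intron index passed in 3 mutants against hsp104. Junction indices depended most on the choices. RPS14A was called in 2 mutants with deletion strains only, in 3 with prp4-1a and mud13 left out of the fit (an alternative chosen after seeing the data) and in 3 with weights by mutant. None of these calls is the reported one in prp4-1a: they were mud1 and prp18, joined by gcr3 in the latter settings. RPS14B was called in 7 with weights and in 2 against hsp104. Their difference was called in 1 mutant with a trend and robust spread, zeros kept, at least 2 usable spots, hsp104 as reference, or a threshold of 0.01. The RPS14A junction probe was called in 2 mutants with either centring, zeros kept or a threshold of 0.01, and neighbouring mutants passed in 8 contrasts centred on all probes, against 5. Centring cannot move an index or a copy difference, and neighbouring contrasts were not run under the alternatives beyond no dye term, centring on all probes, spot medians and a trend. The cause was not tested.

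With each array left out in turn, the counts ran from 1 to 3 for the RPS14A junction index, 3 to 7 for that of RPS14B, 1 to 5 for their difference, 8 to 9 and 6 to 8 for the intron indices of RPS14A and RPS14B, 2 to 3 and 7 to 9 for the exon probes, 8 to 9 for the copy difference at either, 9 to 12 and 5 to 6 for the intron probes and 2 to 7 and 8 to 10 for the junction probes. The RPS14A junction index rose to 3 without any 1 array of prp4-1a or mud13, and that of RPS14B to 7 without either array of prp4-1a. The RPS14A junction probe rose to 7 without the second msl1 array. No intensities were used, so which probes lay above background is unknown.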
